A study of Homo sapiens with 19 samples.

Results

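The effect of PA and the effect of OA on human liver organoids were compared gene by gene, as (PA minus its control) minus (OA minus its control). Of the 19 single-cell RNA libraries of the series, 8 enter this comparison, 2 in each of 4 groups: the PA control, PA at 500 µM, the OA control and OA at 500 µM. The members were taken from the treatment labels alone. The organoids were grown from the wild-type human pluripotent stem cell line W01 (WiCell), an established line, and kept on an orbital shaker, and all 8 libraries are labelled day 25. Per the labels, organoids on the shaker had 20 days of culture and then 5 days of treatment. The labels do not say what the controls received, and OA appears in the sample labels but not in the treatment protocol. Both treatments were tested in 1 cell line, and no label says whether the 2 libraries of a group came from separate cultures, so the p-values measure only the spread between these libraries, which may be technical.

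PA and OA are the usual abbreviations in fatty liver work of palmitic acid, a saturated fatty acid, and oleic acid, a monounsaturated one, although the labels do not spell them out. Fatty acids that enter a liver cell are activated to acyl-CoA and then stored as triglyceride in lipid droplets, exported in lipoproteins or oxidised in mitochondria and peroxisomes. They also bind PPAR-alpha, a nuclear receptor that switches on genes of fatty acid oxidation. Epithelial cells under lipid or inflammatory stress can activate NF-kB, a family of transcription factors that turns on neutrophil-attracting chemokines together with its own inhibitors.

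After cells with under 500 detected genes or over 20% mitochondrial counts were left out, 39722 cells remained of 45769 deposited barcodes, with 3089 to 8249 cells per library. The count of UMIs (unique molecular identifiers, each standing for 1 captured RNA molecule) was added up within a library, so that libraries and not cells are the replicates. Depth was uneven in the PA experiment: PA control replicate 1 held 6880807 UMIs in kept cells at a median of 1747 per cell, whereas the other 7 libraries held 23807698 to 58239103. The PA experiment and the OA experiment were deposited from matrices that list 33538 and 36601 genes, and the fits used the 32732 gene identifiers that both share. Any technical difference between the experiments that acted on treated and control libraries unequally cannot be told apart from a difference between PA and OA. No 2 libraries shared more than 0.386% of the smaller library's barcodes.

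The makeup of the organoids moved further between control and treated libraries in the OA experiment. Cells with at least 1 UMI of EPCAM, an epithelial adhesion molecule, and none of the fibrillar collagen genes COL1A2 and COL3A1 made up 56.5% and 66.5% of cells in the PA control libraries and 67.1% and 73.2% with PA. They made up 32.4% and 23.1% in the OA control libraries and 88.4% and 88.4% with OA. Cells with a collagen UMI and no EPCAM UMI were 7.15% and 10.0% in the PA control libraries and 5.25% and 6.50% with PA, against 35.3% and 37.5% in the OA control libraries and 1.94% and 1.18% with OA. The gain in EPCAM+ collagen- cells with PA minus the gain with OA was -52.03 percentage points. The mean share was already 61.5% in the PA control, beside 27.7% in the OA control. A gain with PA as large as that with OA was therefore not possible, and the unlike controls enter this difference. Both OA libraries lay above both controls by over 50 points, and both PA libraries lay above both PA controls. The exact permutation test of the difference (two-sided, labels permuted within each experiment, 36 arrangements, no p below 0.0556 possible) gave p = 0.333. This test cannot tell whether the gains differ, because permuting labels assumes no treatment effect in either experiment. With gains of 8.66 points with PA and 60.7 with OA, reordering the PA labels alone always gave a larger difference. The p-value was therefore bound to be high however large the OA gain was. When every cell was thinned to 1500 UMIs and shallower cells were left out, the mean share was 52.7% and 56.4% in the PA control and PA, and 32.3% and 74.6% in the OA control and OA. The PA libraries then overlapped their controls, with PA replicate 1 at 53.8% and PA control replicate 2 at 54.0%.

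Free RNA and doublets enter such a gate. Among cells with a collagen UMI, which should lack EPCAM, 25.6% and 57.1% held an EPCAM UMI in the PA control libraries, 40.5% and 66.7% with PA, 43.0% and 46.1% in the OA control libraries and 74.2% and 79.1% with OA. The share of all cells with an EPCAM UMI was higher than this in each library, from 55.1% to 94.0%. Every gene comparison was therefore made both in all cells and in the 24869 EPCAM+ collagen- cells, which numbered 1810 and 3818 in the PA control, 5142 and 6037 with PA, 1766 and 715 in the controls of OA, and 2732 and 2849 after OA. Levels are in CPM, UMI counts scaled to a common library size. TMM factors were used for single genes, and plain library totals for the sums of marker lists. In the gated cells 10 hepatocyte markers summed to 16010 to 25660 CPM. ALB, the defining gene of mature hepatocytes, was at only 6.49 to 84.9 CPM in the 6 libraries without OA. Of 6 immune markers, C1QA was at 0 in all 8 libraries and CD14 and PTPRC in most, while the list summed to 286 to 803 CPM because of CD68 and LYZ, which epithelial cells also express. The 6 endothelial markers summed to 0.333 to 4.94 CPM.

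**Figure D1:**
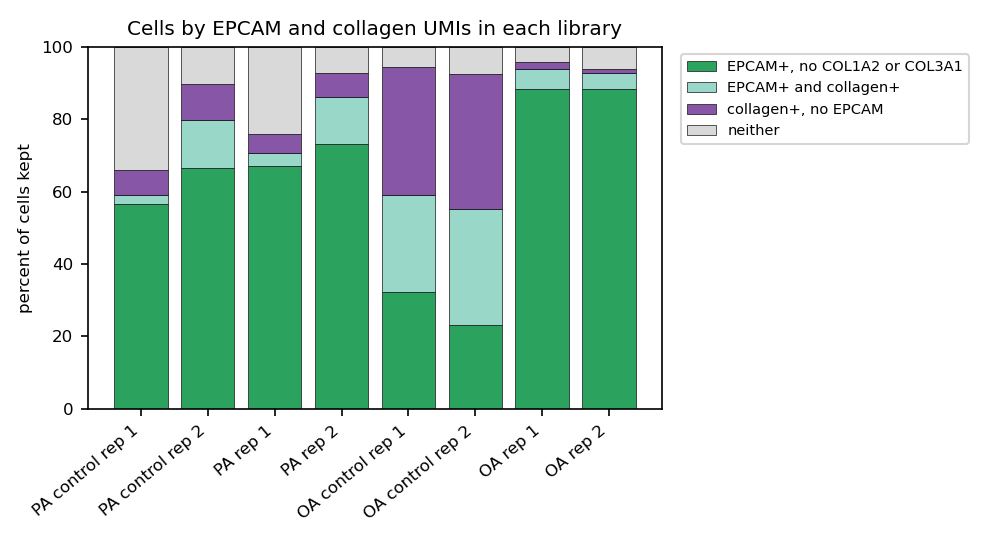
Percent of kept cells in each of the 8 libraries (stacked bars, axis from 0 to 100) that held EPCAM but no COL1A2 or COL3A1 UMI, both, collagen only or neither. The OA control libraries hold 35.3% and 37.5% collagen-only cells and those with OA 1.94% and 1.18%, while the 4 libraries of the PA experiment lie between 5.25% and 10.0%.

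PA changed few genes and OA changed many. In EPCAM+ collagen- cells, 19 of 16966 genes passed the test with PA (0.112%, edgeR quasi-likelihood test, Benjamini-Hochberg adjusted p under 0.05), and all 19 rose. With OA 7012 genes passed (41.3%), of which 3705 rose (21.8%) and 3307 fell (19.5%). The difference of the effects was called for 3323 genes (19.6%), 1442 with a higher PA effect (8.5%) and 1881 with a higher OA effect (11.1%). No gene was called lower with PA by edgeR, where at an unadjusted p under 0.05 361 genes were higher (2.13%) and 174 lower (1.03%). DESeq2 called 55 higher (0.324%) and 3 lower (0.0177%). The typical change was also smaller with PA: over the 6870 genes at 20 CPM or more in at least 1 group, the median absolute log2 fold change was 0.114 with PA and 0.579 with OA. The median standard errors were 0.256 and 0.248 on the log2 scale over all genes tested, from 1 shared estimate of the spread.

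The PA count rested on both PA control libraries. Without the shallow PA control replicate 1, 2 genes were called, without replicate 2 none were by edgeR, and without PA replicate 1 the count was 66. In each of these fits the group left with 1 library was assumed to vary like the others. The OA count was 4334 when OA control replicate 2 was left out and 3797 when OA replicate 1 was. The count of differences was 1941 and 1982 without PA control replicates 1 and 2, 1601 when OA control replicate 2 was left out, and 1174 and 2095 without OA replicates 1 and 2. The log2 fold changes of the genes called with PA moved less: all 19 genes stayed above 1.19 whichever of the 8 libraries was left out, and DESeq2 called all 19. Scaling by library totals in place of TMM factors (edgeR's correction for composition) shifted the median OA effect from -0.05 to -0.29, the split of OA calls to 2571 higher and 4527 lower, and that of the difference to 1800 higher and 1272 lower. Changes are given relative to the TMM scale.

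Where a difference was called, it was nearly always a gene that OA changed. Of the 3323 genes, 3291 were also called with OA and 7 with PA. In 1443 of them both effects had the same sign, and the OA effect was then the larger in all 1443. The other 1880 had effects of opposite sign. Where the PA effect is near 0, a called difference leaves the OA effect the larger by construction. As only 7 of the 3323 had a called PA effect, the sign of the PA effect is uncertain in nearly all. Neither count therefore shows that genes respond alike or in opposite directions. Across the 6870 genes at 20 CPM or more, the 2 effects had a Pearson correlation of 0.273 and a Spearman correlation of 0.11. This describes genes, which are not independent, and the experiments share no control library.

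**Figure D2:**
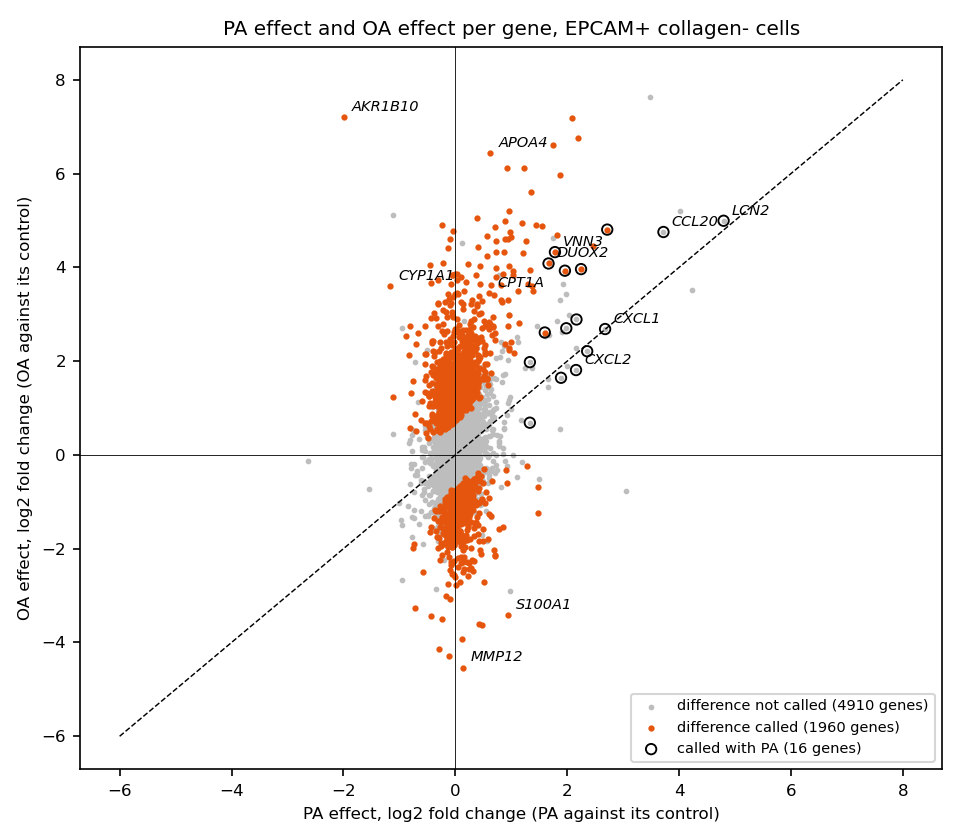
PA effect (x axis) against OA effect (y axis), both as log2 fold change against the own control, for 6870 genes of EPCAM+ collagen- cells at 20 CPM or more in at least 1 group. Orange points have a called difference (1960 genes), grey points do not (4910), circles mark 16 genes called with PA and the dashed line marks equal effects. Most points lie in a narrow vertical band near a PA effect of 0, and the circled genes lie up and to the right, most of them on the line or above it.

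OA raised nearly all of the genes that PA raised. Of the 19, 18 were called higher with OA too. They include the neutrophil-attracting chemokines CXCL1, CXCL2 and CXCL3, the lymphocyte-attracting chemokine CCL20, the cytokines TNF and LTB, and LCN2, an iron-sequestering antibacterial protein. CXCL1 stood at 72.0 and 73.7 in the PA control libraries, 297 and 635 with PA, 75.9 and 94.0 in the OA control libraries and 544 and 548 with OA (CPM, as for all levels below). Treated libraries lay above their controls in both experiments, and the 2 OA libraries lay between the 2 PA libraries. The log2 fold change was 2.68 (SE 0.32, edgeR adjusted p = 0.0215) with PA and 2.69 (SE 0.32, edgeR adjusted p = 2.25e-04) with OA. The difference was -0.01, with a 95% interval of -0.96 to 0.95, so a gap of more than about 1 log2 unit in either direction lies outside the interval.

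CXCL2 was measured at 43.8 and 41.6 in the PA control libraries, 136 and 244 with PA, 68.6 and 92.3 in the OA control libraries and 299 and 265 with OA. Its difference of effects was 0.35 (-0.49 to 1.19). CXCL3 had levels of 56.0 and 57.0 in the PA control libraries, 216 and 363 with PA, 78.7 and 89.9 in the OA control libraries and 417 and 364 with OA, with a difference of 0.15 (-0.61 to 0.90). CXCL1, CXCL2 and CXCL3 are close paralogs, and how reads that fit several were counted is not given in the sources used here. In these 3 chemokines PA replicate 2 was higher than PA replicate 1, and both exceeded every control library. TNF, the cytokine that starts many NF-kB responses, stood at 5.77 and 3.41 in the PA control libraries, 14.9 and 20.0 with PA, 1.87 and 1.69 in the OA control libraries and 7.13 and 7.81 with OA. The PA and OA effects on TNF were 2.08 and 2.06, and their difference had an interval of -0.90 to 0.94. In all cells TNF was not among the genes that edgeR called with PA. LCN2 was 1.92 and 0.847 in the controls and 33.7 and 24.5 with PA, and 2.94 and 4.58 in the controls and 97.6 and 138 with OA. Its effects of 4.80 (edgeR adjusted p = 0.00474) and 4.99 (adjusted p = 2.35e-05) differed by -0.20 (-1.36 to 0.96).

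CXCL1, CXCL2, CXCL3 and CXCL8 lie together on chromosome 4, and each carries the same kB-type letters shortly before its start. The stretches shown are from genes with a match, and genes called with PA that lack one are not shown. edgeR called CXCL1, CXCL2 and CXCL3 with both treatments, and CXCL8 with OA only. The motif searched was GGAANTTCC, which reads the same on both strands, in the 250 bases before each gene's start in RefSeq (GRCh38.p14). It was found in 272 of 27305 genes with a promoter entry (0.996%), and in 8 of the 17 chemokines and cytokines tested that have an entry. Capitals mark the match, and each line gives 30 bases on either side, 5′ to 3′ on the gene's strand. The match starts at base -78 from the gene's start in CXCL1, -77 in CXCL2, -78 in CXCL3 and -91 in CXCL8. In order, the stretches come from chr4:73869285-73869353 on the plus strand, chr4:74099234-74099302 on the minus strand, chr4:74038729-74038797 on the minus strand and chr4:73740448-73740516 on the plus strand.
CXCL1: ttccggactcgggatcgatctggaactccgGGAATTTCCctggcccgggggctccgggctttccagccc
CXCL2: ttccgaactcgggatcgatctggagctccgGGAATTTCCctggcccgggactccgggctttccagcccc
CXCL3: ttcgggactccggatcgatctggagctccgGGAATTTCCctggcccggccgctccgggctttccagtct
CXCL8: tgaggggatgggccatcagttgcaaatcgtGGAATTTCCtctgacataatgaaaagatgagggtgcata
A match is a description of these letters and not a measured site. All 8 matches in the chemokine and cytokine list are in CXCL genes, and that share describes the list, not a response to PA or OA. Of the 14 genes called with PA that have an entry, 3 held a match (CXCL1, CXCL2 and CXCL3). CCL20, TNF, LTB, LCN2 and BIRC3 had an entry and no match in this window.

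The chemokine and cytokine list stood high with both treatments. This list and those below were chosen with earlier results of these data known, so their counts are descriptions. Of 24 members tested, 5 were called higher with PA (background 0.112%) and 19 with OA (background 21.8%), and none lower with either. The 5 called with PA are among the 19 genes above and are not separate support. DESeq2 called 8 higher with PA (background 0.324%). Without adjustment, 19 were higher with PA at p under 0.05 (background 2.13%). The median log2 fold change was 1.68 with PA and 2.14 with OA, beside 0.01 and -0.05 over all genes tested. In 18 of the 24 both treated libraries lay above both controls in both experiments, which held for 5.54% of all genes tested. CXCL8, another neutrophil attractant, was 28.6 and 18.1 in the controls and 37.0 and 133 with PA, where PA replicate 1 was close to the controls, and 48.8 and 46.7 in the controls and 260.1 and 325 with OA. edgeR called it with OA (2.61) and not with PA (1.91, adjusted p = 0.559). CXCL6 and CXCL10 had PA effects of 1.66 and 2.41 beside OA effects of 1.44 and 3.04, and by edgeR the OA effects were called and the PA effects and differences were not. DESeq2 called CXCL6 with PA.

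The difference was called for 6 of the 24, 1 toward PA and 5 toward OA, beside 8.5% and 11.1% of all genes tested. DESeq2 called 2 toward PA and 7 toward OA, beside 1338 and 1929 of all 16966 genes tested. In all cells edgeR called 1 toward PA and 9 toward OA of 24, beside 13.0% and 13.1%. IL1A and IL1B, the 2 founding interleukin cytokines, had PA effects of 1.30 and 1.78 and OA effects of 3.65 and 5.33. CCL28, a mucosal chemokine, had 1.71 and 6.32, and IL32 and TNFSF15 were also higher with OA. CX3CL1, a membrane-bound chemokine, went the other way: its levels were 14.7 and 18.6 in the controls and 32.5 and 32.0 with PA and 7.89 and 11.0 in the controls and 3.78 and 8.53 with OA, a difference of 1.53 (SE 0.47, edgeR adjusted p = 0.0452). CCL2, the monocyte attractant, had the same pattern with effects of 1.49 and -0.52, but its difference of 2.01 was not called (adjusted p = 0.0596).

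NF-kB feedback and target genes that passed the test were higher with both treatments. Of 24 tested, edgeR called 3 with PA (BIRC3, TNFAIP2 and LTB; background 0.112%) and 18 with OA (background 21.8% higher), all higher. DESeq2 called 7 with PA (background 0.324%), NFKBIA and ICAM1 among them, and 18 had treated libraries above controls in both experiments (background 5.54%). The medians were 0.61 and 1.04. NFKBIA, the inhibitor that NF-kB induces to switch itself off, stood at 92.9 and 125 in the PA control libraries, 254 and 309 with PA, 162 and 192 in the OA control libraries and 695 and 579 with OA. The OA effect was 1.85 (SE 0.22, edgeR adjusted p = 2.24e-04) and the PA effect, not called by edgeR, 1.37 (SE 0.22, edgeR adjusted p = 0.0685), and the difference of -0.48 had an interval of -1.15 to 0.19. ICAM1, an adhesion molecule for leukocytes, was 14.7 and 8.16 in the controls and 29.2 and 49.1 with PA, and 7.66 and 5.01 in the controls and 64.5 and 62.4 with OA. TNFAIP3, a deubiquitinase that restrains NF-kB, had effects of 1.24 and 1.86 with an interval of the difference of -1.55 to 0.31. The difference was called for 1 toward PA and 5 toward OA (background 8.5% and 11.1%). In all cells it was called for 0 toward PA and 9 toward OA of 25 tested (background 13.0% and 13.1%). In the gate IER3 was the 1 toward PA. It was at 159 and 185 in the controls and 263 and 232 with PA. In the OA experiment it was at 183 and 176 in the controls and 147 and 143 with OA, a difference of 0.83 (SE 0.24, edgeR adjusted p = 0.0368).

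The same motif occurs before NFKBIA and ICAM1, in 7 of the 21 tested NF-kB genes with an entry, beside 1.14% of the 12059 tested genes with one. The list was drawn up as NF-kB targets, so this share describes the list and says nothing on the response to PA or OA. In NFKBIA it starts at base -81 (chr14:35404792-35404860 on the minus strand) and in ICAM1 at base -186 (chr19:10270904-10270972 on the plus strand), both from RefSeq GRCh38.p14.
NFKBIA: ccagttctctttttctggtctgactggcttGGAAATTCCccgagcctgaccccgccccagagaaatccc
ICAM1: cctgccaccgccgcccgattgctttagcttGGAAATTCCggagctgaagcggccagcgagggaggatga

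Of the 19 genes called with PA in the gate, 12 had no called difference there and 7 had one. In all cells 8 of the 16 genes called with PA had a called difference. Beside those above, C3, the central complement protein, stood at 54.1 and 38.7 in the PA control libraries, 189 and 151 with PA, 76.0 and 114 in the OA control libraries and 297 and 298 with OA, with a difference of 0.24 (-0.52 to 1.01). ZC3H12A, an RNase that degrades cytokine mRNAs, was 24.6 and 23.5 in the controls and 57.5 and 63.3 with PA, and 30.4 and 31.0 in the controls and 112 and 130.0 with OA. Its difference was -0.65 (SE 0.22, edgeR adjusted p = 0.0702) in gated cells, while in all cells it was -1.05 (SE 0.22, edgeR adjusted p = 0.00868). CCL20 reached 329.6 and 916 with PA from 60.9 and 35.0, and 4441 and 4571 with OA from 188 and 146. The interval of its difference, -2.36 to 0.30, reaches from a much larger OA effect to a slightly larger PA effect. In all cells the CCL20 difference was -1.66 (-3.07 to -0.25, edgeR adjusted p = 0.0804). LTB had the highest estimate toward PA of the 12, 0.64 (0.04 to 1.25, adjusted p = 0.121). In all cells the LTB difference was -0.14 (-0.66 to 0.37). In the gate the unadjusted intervals of ZC3H12A, LTB and TNFAIP2 leave out 0 although the adjusted tests made no call. TNFAIP2, POU2F2 and SLC6A14 complete the 12, with differences of -0.72, 0.50 and -0.72. In all cells the differences of TNFAIP2 and SLC6A14 were called, at -1.29 (SE 0.28, edgeR adjusted p = 0.0095) and -1.33 (SE 0.38, edgeR adjusted p = 0.0293).

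In 6 of the 7 the OA effect was larger. DUOX2 and DUOXA2 encode the hydrogen peroxide-producing oxidase of mucosal epithelia and its maturation factor, and they lie head to head on chromosome 15 (DUOX2 at chr15:45092650-45114172 on the minus strand, DUOXA2 at chr15:45114326-45118421 on the plus strand, GRCh38). DUOX2 was 9.83 and 7.88 in the controls and 31.6 and 23.1 with PA, and 19.3 and 16.1 in the controls and 300.4 and 300.3 with OA. DUOXA2 was 1.92 and 3.05 in the controls and 15.0 and 21.2 with PA, and 13.2 and 9.59 in the controls and 359 and 283 with OA. Their differences were -2.42 (SE 0.30, edgeR adjusted p = 0.00166) and -2.09 (SE 0.38, edgeR adjusted p = 0.00628). VNN3, a member of the pantetheinase family, differed by -2.54 (SE 0.32, edgeR adjusted p = 0.00175), and the apoptosis inhibitor BIRC3 by -1.72 (SE 0.34, edgeR adjusted p = 0.00867). PI3, the protease inhibitor elafin, had higher levels with PA than with OA, from higher controls (15.4 and 11.5 in the PA control libraries, 52.2 and 49.2 with PA, 2.75 and 1.48 in the OA control libraries and 34.8 and 31.8 with OA). The difference of -1.97 (adjusted p = 0.00602) is a difference of fold changes, not of treated levels. DEFB1, an epithelial beta-defensin, had -1.01 (adjusted p = 0.049), and the call was lost in 7 of the 8 fits that left out 1 library.

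Of the 19, DEFA6 was the one gene not called higher with OA. DEFA6 is an alpha-defensin of Paneth cells, the antimicrobial cells of the small intestine, and has no usual role in the liver. Its counts in EPCAM+ collagen- cells were 0 and 3 in the PA control libraries, 107 and 425 with PA, 1 and 6 in the OA control libraries and 0 and 4 with OA. With PA it stood at 5.47 and 9.03 CPM. The ratio of PA to control, summed over libraries, was 109 with an exact 95% interval of 37.1 to 530.3 that covers counting error only. The difference of effects had an edgeR adjusted p of 0.00831. Leaving out 1 library moved the PA effect between 6.24 and 10.6 and the difference between 6.65 and 12.6 on the log2 scale. In all cells DEFA6 was not among the genes that edgeR called with PA.

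**Figure D3:**
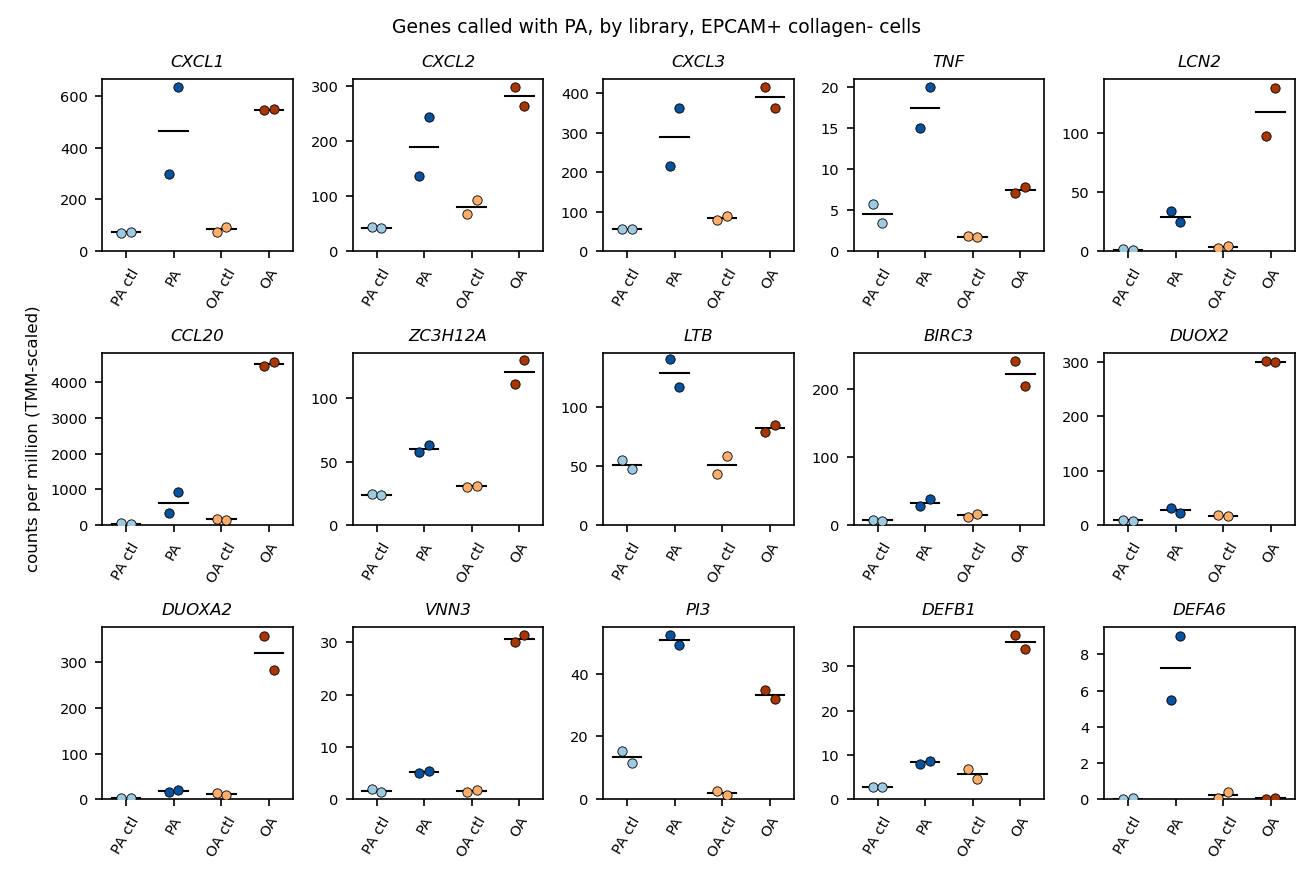
Level of 15 of the 19 genes called with PA in each library of EPCAM+ collagen- cells, in TMM-scaled CPM on linear axes that start at 0. Points are libraries and horizontal lines are means of 2. The 2 OA libraries of CXCL1 lie between its PA libraries, CCL20, BIRC3, DUOX2, DUOXA2 and VNN3 reach far higher levels with OA, and DEFA6 is detected almost only with PA.

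Interferon-stimulated genes did not follow one pattern. All 19 tested members had a PA effect above 0 (background 52.4%), with a median of 0.67, yet edgeR called none with PA. At an unadjusted p under 0.05 there were 9 (background 2.13%) and DESeq2 called none. With OA 9 were called higher and 1 lower (background 21.8% and 19.5%). The difference was called for 6, of which 3 were toward PA and 3 toward OA (background 8.5% and 11.1%). OAS1, GBP1 and GBP2 were raised by OA, with OA effects of 2.76, 2.75 and 1.63 beside PA effects of 0.67, 0.65 and 0.40. IFI6, IFIT1 and BST2 lay on the other side. IFI6, a mitochondrial protein of the interferon response, stood at 221 and 231 in the PA control libraries, 483 and 336 with PA, 56.5 and 50.6 in the OA control libraries and 20.4 and 16.6 with OA. The libraries of IFI6 separated upward with PA and downward with OA, and the difference was 2.39 (SE 0.30, edgeR adjusted p = 0.00182).

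Among acute-phase proteins, the plasma proteins that the liver releases in inflammation, LCN2 and C3 were called with both treatments. SAA1 and SAA2, the serum amyloid A proteins, were called with OA (2.10 and 3.00) and had PA effects of 3.87 and 3.68 that edgeR did not call. In all cells SAA1 had a PA effect of 0.42 and an OA effect of -1.14, neither called, so its OA direction depends on the gate. The pair is nearly identical in sequence, so its reads may be split between them. SAA1 levels were low, 1.50 and 0.205 in the PA control libraries, 8.85 and 3.51 with PA, 1.63 and 0.635 in the OA control libraries and 5.79 and 4.42 with OA. Of 16 members tested, edgeR called 2 higher with PA (background 0.112%) and DESeq2 3 (background 0.324%). With OA edgeR called 6 higher and 3 lower, beside a background of 21.8% higher and 19.5% lower, whereas in all cells it called 9 of 18 higher (background 24.1%) and none lower. In the gate ORM2 and SERPINA3 fell with OA, with called differences of 1.82 and 2.17, and fibrinogen beta (FGB) rose with OA, with a difference of -1.60. All 7 metallothioneins tested had PA effects above 0 (background 52.4%), with a median of 0.83, but none was called with either treatment by edgeR or, with PA, by DESeq2, and 1 had an unadjusted p under 0.05 with PA (background 2.13% higher and 1.03% lower).

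The genes of fatty acid handling separated the treatments. PLIN2 was the one gene that DESeq2 called with PA in the lists of lipid, stress, cell cycle, matrix, gut and hepatocyte genes, and edgeR called none there. Of 27 tested genes of fatty acid oxidation and PPAR-alpha targets, 19 rose with OA (background 21.8%) and none fell. With PA none was called by edgeR or DESeq2, and 3 were higher and 1 lower at an unadjusted p under 0.05 (background 2.13% and 1.03%). The difference was called for 13, all with the higher OA effect (background 11.1%), and the medians were 0.13 with PA and 1.13 with OA. CPT1A, the enzyme that commits fatty acids to mitochondrial oxidation, stood at 12.0 and 13.1 in the PA control libraries, 20.2 and 18.2 with PA, 9.06 and 6.77 in the OA control libraries and 94.3 and 79.2 with OA. The OA effect was 3.44 (SE 0.20, edgeR adjusted p = 1.46e-05), the PA effect 0.60 (SE 0.19, edgeR adjusted p = 1) and the difference -2.85 (SE 0.27, edgeR adjusted p = 8.36e-04). ETFDH (electron transfer from oxidation to the respiratory chain) and CREB3L3 (a liver and gut transcription factor) had differences of -2.36 and -3.47. PDK4, which turns pyruvate use down, was 7.91 and 7.85 in the controls and 11.6 and 18.7 with PA, and 4.25 and 5.71 in the controls and 27.1 and 20.9 with OA, with a difference of -1.33 (SE 0.38, edgeR adjusted p = 0.035).

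ANGPTL4, a secreted inhibitor of lipoprotein lipase and a PPAR target, did not rise with the other PPAR targets under OA. Its levels were 8.76 and 14.7 in the PA control libraries, 23.6 and 29.3 with PA, 1.96 and 7.90 in the OA control libraries and 2.87 and 3.97 with OA. In gated cells the difference of 1.58 was not called (adjusted p = 0.131), and in all cells it was 2.04 (SE 0.64, edgeR adjusted p = 0.0434).

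Of 23 lipid droplet genes tested, 13 rose and 4 fell with OA (background 21.8% and 19.5%), and edgeR called none with PA. The difference was called for 15, 2 toward PA and 13 toward OA (background 8.5% and 11.1%). PLIN2, the coat protein of lipid droplets, stood at 151 and 157 in the PA control libraries, 342 and 232 with PA, 219 and 195 in the OA control libraries and 1142 and 1010.1 with OA. Both PA libraries lay above both controls. DESeq2 called the PA effect of 0.90, edgeR did not (adjusted p = 0.462), and the OA effect of 2.38 exceeded it by a called difference of -1.48 (adjusted p = 0.0106). PLIN2 was the single member of the list whose libraries separated upward in both experiments (background 5.54%). CIDEC and CIDEB, which enlarge droplets and load lipoproteins, had differences of -3.40 and -3.44. The triglyceride synthesis enzymes DGAT2 and DGAT1 had -3.43 and -1.75, and the lipase MGLL -3.31. HILPDA, an inhibitor of droplet lipolysis, and PNPLA3 fell with OA (-1.09 and -1.04) and had called differences of 1.38 and 1.08.

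For uptake, binding and activation of fatty acids, 15 of 21 tested genes rose and 4 fell with OA (background 21.8% and 19.5%), and 4 were higher with PA at an unadjusted p under 0.05 (background 2.13%) with none called. FABP1, the liver fatty acid-binding protein, was 443 and 347 in the controls and 685 and 823 with PA, and 2166 and 923 in the controls and 11325 and 9364 with OA. Its difference was -1.81 (SE 0.50, edgeR adjusted p = 0.0326). ACSL5 and CD36, an acyl-CoA synthetase and a fatty acid receptor, had differences of -3.07 and -5.53. FABP5 fell with OA (-1.05) and its PA effect was 0.47. Lipoprotein genes had the widest gap of all lists, with medians of 0.26 with PA and 2.67 with OA over 14 members. APOA4, an apolipoprotein of intestinal chylomicrons, stood at 107 and 46.8 in the PA control libraries, 98.1 and 135 with PA, 100.1 and 19.7 in the OA control libraries and 5335 and 5099.6 with OA. APOB, the structural protein of triglyceride-rich lipoproteins, and MTTP, which loads it with lipid, had PA effects of 0.04 and -0.01 and OA effects of 3.74 and 3.42. APOE had effects of 0.26 and -0.22, neither called.

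Synthesis and desaturation of fatty acids did not move one way. Of 19 tested genes, 8 rose and 5 fell with OA (background 21.8% and 19.5%), or 5 and 7 on the scale of library totals, and none had an unadjusted p under 0.05 with PA. The desaturases of polyunsaturated fatty acids fell with OA. FADS1 was 41.2 and 45.6 in the controls and 61.0 and 46.5 with PA, and 48.6 and 51.6 in the controls and 28.2 and 25.5 with OA, with a difference of 1.20 (SE 0.25, edgeR adjusted p = 0.0108). FADS2 and FADS3 had OA effects of -0.87 and -1.24. SCD, which makes monounsaturated from saturated fatty acids, was 44.9 and 62.0 in the controls and 49.8 and 75.2 with PA, and 109.9 and 94.5 in the controls and 198 and 151 with OA, and its effects of 0.22 and 0.77 did not differ by the test (-1.33 to 0.22). FASN fell slightly with OA (-0.48) and had a PA effect of 0.02. Cholesterol synthesis genes rose with OA in 16 of 25 and fell in 1 (background 21.8% and 19.5%). The difference was called toward OA for 5 (background 11.1%), for 3 on the scale of library totals and for 9 by DESeq2. HMGCS1, an early enzyme of that pathway, was 98.1 and 81.4 in the controls and 83.1 and 107 with PA, and 92.6 and 91.8 in the controls and 298 and 252 with OA.

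**Figure D4:**
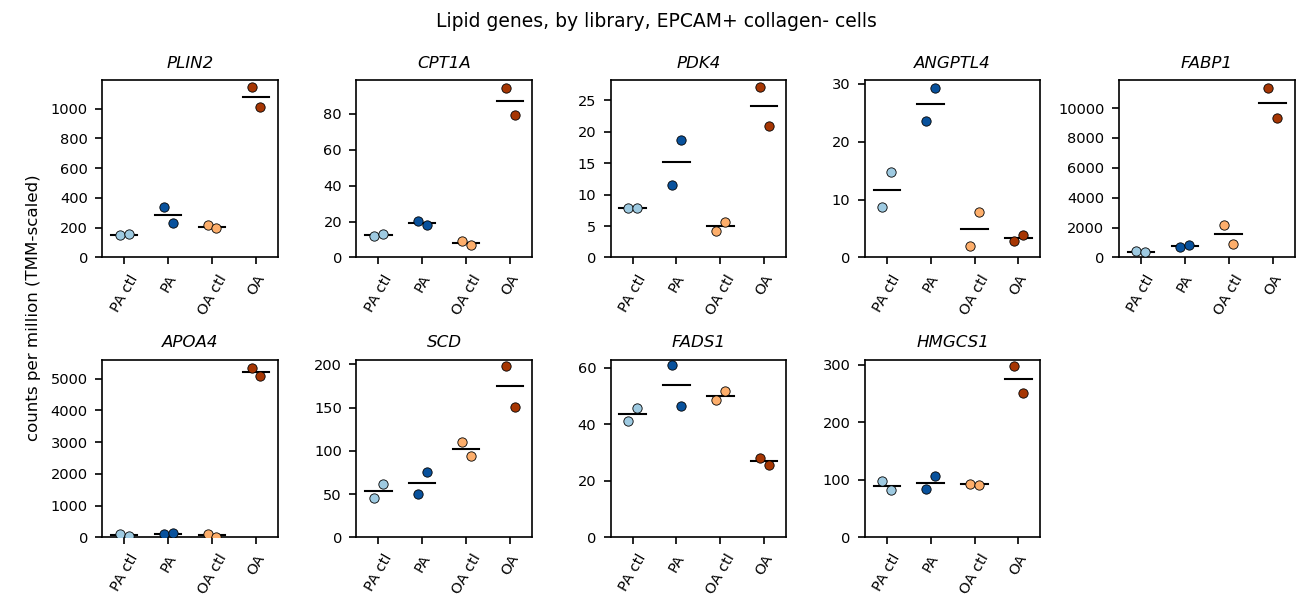
Level of 9 lipid genes in each library of EPCAM+ collagen- cells, in TMM-scaled CPM on linear axes that start at 0. Points are libraries and horizontal lines are means of 2. PLIN2 and CPT1A are highest in both OA libraries and FADS1 is lowest there, while ANGPTL4 is highest in both PA libraries.

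Lists of stress genes were read against the share of all genes tested, 21.8% higher and 19.5% lower with OA, and 8.5% toward PA and 11.1% toward OA for the difference. Of 19 NRF2 antioxidant targets, 14 rose with OA and none fell by edgeR with TMM, while DESeq2 and the scale of library totals each gave 1 lower, and the PA median was -0.07 with no gene at an unadjusted p under 0.05. NQO1, a quinone reductase, was 48.1 and 42.6 in the controls and 34.8 and 56.8 with PA, and 86.0 and 50.1 in the controls and 429.5 and 409 with OA, a difference of -2.60 (SE 0.41, edgeR adjusted p = 0.00379). TXNRD1 and GCLM, of thioredoxin and glutathione metabolism, had differences of -2.09 and -2.23. ER chaperones and other targets of the unfolded protein response rose with OA in 12 of 22 and fell in 1, with a PA median of 0.08 and 2 genes higher at an unadjusted p under 0.05 (background 2.13%). HSPA5, the main chaperone of the endoplasmic reticulum, was 851 and 753 in the controls and 942 and 887 with PA, and 658 and 569 in the controls and 1369.6 and 1345 with OA. DDIT3, the stress factor CHOP, was 23.9 and 29.1 in the controls and 38.5 and 37.8 with PA, and 15.2 and 14.2 in the controls and 35.6 and 30.6 with OA, and its difference of -0.66 was not called (adjusted p = 0.0804). Of 22 genes of the integrated stress response, 11 rose and 3 fell with OA and none was called with PA. The difference was called for 2 toward PA and 5 toward OA, or 2 and 3 on the scale of library totals. TRIB3, a pseudokinase of the same response, differed by -1.42 (SE 0.32, edgeR adjusted p = 0.0138), while ATF3 had effects of 0.08 and 0.19 and an interval of the difference of -0.74 to 0.52.

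Gut and hepatocyte genes rose with OA within the gate, and markers of cell identity thus moved with the other lists. The 8 gut epithelial markers summed to 464 and 417 CPM in the PA control libraries, 362 and 424.5 with PA, 717 and 457 in the OA control libraries and 5049 and 4030 with OA. Of 21 gut epithelial genes 15 rose with OA (background 21.8%), and none was called with PA by edgeR or DESeq2, with 5 higher at an unadjusted p under 0.05 (background 2.13%). KRT20, a keratin of mature intestinal epithelium, stood at 7.26 and 3.23 in the PA control libraries, 8.80 and 21.3 with PA, 32.5 and 17.8 in the OA control libraries and 2689.8 and 2235 with OA. Hepatocyte secreted proteins and enzymes rose with OA in 12 of 18 and fell in 1 (background 21.8% and 19.5%). ALB, the albumin gene, was 37.2 and 43.3 in the controls and 65.5 and 84.9 with PA, and 30.5 and 6.49 in the controls and 827 and 363 with OA. AFP, the fetal counterpart of albumin, was 789.5 and 796 in the controls and 555 and 814 with PA, and 693 and 796 in the controls and 7346 and 5419.8 with OA, and SERPINA1 fell with OA (-1.11). On the scale of library totals, the 10 hepatocyte markers summed to 16850 and 16010 in the OA control libraries and 18600 and 16030 with OA. Their total thus moved far less than ALB or AFP alone, whose levels are TMM-scaled. The part of cell identity in the lipid and stress results was not tested.

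Cell cycle genes fell with OA. Of 22 genes of S phase and mitosis 19 fell with OA (background 19.5%) and none rose, none had an unadjusted p under 0.05 with PA, and the difference was called for 17 (background 8.5%). MKI67, the proliferation antigen, was 4.91 and 4.54 in the controls and 4.81 and 4.74 with PA, and 39.5 and 33.3 in the controls and 15.7 and 18.7 with OA, a difference of 1.11 (SE 0.27, edgeR adjusted p = 0.0185). Control levels differed between the experiments, and with OA the gated cells still lay above both PA control libraries. Extracellular matrix genes fell in 11 of 22 and rose in 5 with OA (background 19.5% and 21.8%). With PA 6 were lower at an unadjusted p under 0.05 (background 1.03%) and none was called. The matrix genes did not share a direction: LUM, a collagen-binding proteoglycan, had an OA effect of 2.74 and the gelatinase MMP2 of -3.97, beside PA effects of -0.81 and -0.61. SPARC, a collagen-binding matrix protein, was 48.9 and 59.9 in the controls and 20.8 and 34.7 with PA, and 31.4 and 33.1 in the controls and 15.5 and 9.09 with OA, with a difference of 0.42 (-0.49 to 1.32). COL1A1, which the gate did not use, was 24.6 and 25.8 in the controls and 15.0 and 18.9 with PA, and 32.4 and 38.4 in the controls and 6.10 and 6.49 with OA. Of the 4 groups the OA control had the highest COL1A1 level in the gate and the most collagen-positive cells. The 13 mesenchymal markers together did not share that order. In the gate they summed to 193 and 297 CPM in the PA control libraries and 128 and 150 in the OA control libraries. The part of free RNA was not tested.

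Among genes at 20 CPM or more in at least 1 group, the largest called differences toward PA came from genes that fell with OA. MMP12, a macrophage-type metalloelastase, was 65.4 and 85.5 in the controls and 93.5 and 73.1 with PA, and 3.32 and 7.12 in the controls and 0.191 and 0.240 with OA. The difference was 4.67 (SE 0.53, edgeR adjusted p = 0.00139). BEX1, an adaptor protein best known from neurons, was 1019 and 880.1 in the controls and 1375 and 698 with PA, and 354 and 424 in the controls and 16.0 and 35.3 with OA. BMP7, a bone morphogenetic protein, differed by 3.26, and IGFBP7, COL9A3, RELN and MRC2 by 4.18, 4.11, 4.03 and 3.84. In none of these was the PA effect called by edgeR. Under the same limit the largest toward OA were AKR1B10, an aldo-keto reductase, with 1 and 6 counts in the OA control libraries and 1414 and 1089 with OA, and APOA4. APOC3, an inhibitor of triglyceride clearance, GUCA2B, a gut guanylate cyclase ligand, PSCA, KRT20 and the gastric mucin MUC5AC were also named. PSCA had 0 and 8 counts in the PA control libraries, and without replicate 2, which leaves a control of 0, its difference of -5.11 was lost and turned to 0.18.

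Few genes separated upward with one treatment and downward with the other. Of all genes tested, 3.49% had PA libraries above and OA libraries below their controls, and 3.52% the reverse. In each experiment alone, libraries did not overlap for 23.1% of genes with PA and 77.5% with OA. With 2 libraries in each group, random order alone separates many genes. The share with PA is no higher than such order gives, so non-overlap by itself is not a test of an effect. S100A1, a calcium-binding protein, was 25.6 and 25.8 in the controls and 56.9 and 42.0 with PA, and 9.43 and 9.17 in the controls and 0.646 and 1.08 with OA, and the difference was 4.36 (SE 0.35, edgeR adjusted p = 5.63e-04). CYP1A1, the classical target of the aryl hydrocarbon receptor, was 26.5 and 20.8 in the controls and 6.19 and 14.2 with PA, and 0.981 and 0.917 in the controls and 10.6 and 12.5 with OA. Its difference was -4.76 (SE 0.53, edgeR adjusted p = 0.00129), although edgeR did not call the PA effect alone. The OA libraries of CYP1A1 lay between its PA libraries, so this is a difference of fold changes from unlike control levels, not of treated levels. ABCG1, a cholesterol exporter, had effects of -0.88 and 2.53, and SPOCK2, a matrix proteoglycan, -0.83 and 2.13. APOC2 is also named by the rule, with 3 counts in the PA controls and 2 with PA, too few for a fold. edgeR called none of the 12 genes that the rule names here with PA, and DESeq2 called SERPINA3 and SPOCK2.

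Genes lower with both were rarer among called genes, since edgeR called none lower with PA. DESeq2 called CNTNAP2 lower with PA. By library overlap 5.32% of genes tested lay below their controls in both experiments. CNTNAP2, a neuronal adhesion protein, was 22.9 and 23.4 in the controls and 12.1 and 11.8 with PA, and 72.6 and 59.0 in the controls and 24.2 and 22.5 with OA. The neuropeptide gene GAL had effects of -0.96 and -2.66, and LBH, ZCCHC3 and TRBC2 had PA effects of -0.85, -1.01 and -0.78. All 6 genes named here, SPARC included, were called lower with OA, and no difference was called. Most genes whose treated libraries lay above their controls in both experiments were not called with PA. Of the few such genes that the rule names for their size, edgeR did not call TRIM31, GPA33 or FABP6 with PA, and DESeq2 called TRIM31. TRIM31, a ubiquitin ligase of gut epithelium, had effects of 2.47 and 4.45, a called difference. GPA33, a gut surface antigen, had 1 count over both PA control libraries and 35 with PA, a ratio of 21.5 with an exact 95% interval of 3.62 to 873.9 from counting alone. FABP6, the ileal bile acid-binding protein, had 0 and 7 counts in the PA control libraries and 8 and 131 with PA. It was 4.20 and 4.30 in the controls and 1610.0 and 81.8 with OA, so its 2 OA libraries lay far apart.

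In all cells PA again changed few genes and OA many. PA raised 16 of 18885 genes (0.0847%) and lowered none by edgeR (692 genes of either direction at an unadjusted p under 0.05, and 66 higher and 10 lower with DESeq2), while OA changed 9083 (48.1%), 4554 higher (24.1%) and 4529 lower (24.0%). On the scale of library totals OA had 2932 higher and 6394 lower. All 16 genes that PA raised were called higher with OA too, and 15 of them were also among the 19 of the gated cells. The exception was CA8, a carbonic anhydrase-related protein, at 2.87 and 2.63 in the controls and 12.6 and 15.2 with PA, and 1.94 and 2.50 in the controls and 5.93 and 11.3 with OA. In turn, edgeR called TNF, DEFB1, DEFA6 and POU2F2 with PA in the gated cells only. The difference of effects was called for 4918 genes (26.0%), 2447 toward PA (13.0%) and 2471 toward OA (13.1%). On that scale these were 3271 and 1535. The count of differences was 2742 when OA control replicate 2 was left out and 2665 when OA replicate 1 was, and that of OA was 5974 and 5953. For PA, leaving out the second control library gave 0 calls, leaving out the first gave 1, and leaving out the first PA library gave 52. Of the called differences 2919 were shared with the gated cells, 64.0% of those in all cells and 87.8% of those in gated cells over the genes in both fits, and 2918 had the same sign.

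Among genes at 20 CPM or more in at least 1 group, the largest differences toward PA in all cells included mesenchymal genes that fell with OA. MGP, a matrix protein of connective tissue, was 74.8 and 148 in the controls and 77.2 and 56.3 with PA, and 516 and 808 in the controls and 4.75 and 1.33 with OA. CD248, a fibroblast surface protein, had a difference of 7.07 (SE 0.52, edgeR adjusted p = 1.78e-04), and KCNE4, a potassium channel subunit, of 6.94 (SE 0.40, edgeR adjusted p = 1.41e-04). HHIP had 2454 counts over the OA control libraries and 3 with OA, a ratio of 0.00125 (exact 95% interval 0.000257 to 0.00364, counting error only). In summed libraries, fewer cells of a type and less RNA per cell cannot be told apart. Collagen-only cells averaged 36.4% of cells in the OA controls and 1.56% with OA, and 13 mesenchymal markers summed to 3339 and 5519 CPM in the OA controls and 187 and 149 with OA, so these differences moved with cell makeup, whose part was not tested. The CXCL1 effects were 2.67 and 3.14 in all cells and 2.68 and 2.69 in the gate.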

How the data were processed

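Gene expression was measured in 8 single-cell RNA libraries. The values the authors deposited are raw UMI counts per gene and barcode, with no normalization, as their headers and whole numbers show. Files of the PA experiment give software version 3.0.2 and files of the OA experiment Cell Ranger 6.0.2, while the submitters' processing notes name bcl2fastq, Cell Ranger 3.0.2, Scanpy and GRCh38. Counts were summed per library over kept cells, and doublets were kept in the main analysis, since Scrublet's automatic threshold marked at most 0.905% of a library's cells. edgeR 4.0.16 (filterByExpr by group, TMM, quasi-likelihood test) fitted all 8 libraries with 1 mean per group, and PA, OA and their difference were contrasts with p-values adjusted over all genes. Alternatives were DESeq2 1.42.0, its size factors, no filter on low counts, stricter cell filters, Scrublet removal, other gates, a replicate block and leaving out each library. The fits were also run on simulated data with known changes in the PA effect only, and the outcome is not reported here. Genes are named by size of difference, by library overlap in both experiments, as fixed anchors or list members. Genes called with PA were added after their values were seen. The libraries were taken from the treatment labels, while the anchors, the gene lists and their members were chosen with earlier results of these data known. Standard errors are the size of the log2 fold change over the square root of edgeR's F, which is unreliable for genes near 0 counts. Intervals of ratios cover counting error only. Single genes of some lists are not reported here. Gene positions come from GENCODE v44 (GRCh38).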

Additional observations from a re-analysis of the deposited data

Results flagged for a closer look

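Some genes had treated libraries above their controls in one experiment and below them in the other, and a called difference of effects (PA effect minus OA effect) in EPCAM+ collagen- cells. edgeR called none of their PA effects alone, and DESeq2 called those of SERPINA3 and SPOCK2. Higher with PA and lower with OA were LCN15, with a difference of 2.72, S100A1 with 4.36, IFI6 with 2.39, LIMD2 with 2.36, SERPINA3 with 2.17 and BCKDHA with 1.95. Lower with PA and higher with OA were AKR1B10 with -9.19, CYP1A1 with -4.76, IL10RB with -2.36, ABCG1 with -3.41 and SPOCK2 with -2.96. AKR1B10 had 3 counts with PA and 8 in its controls, a ratio of 0.231 (exact 95% interval 0.0394 to 0.961, counting error only), and its OA counts were 1 and 6 in the controls and 1414 and 1089 with OA. SERPINA3 and BCKDHA also had very different control levels in the experiments, at 0.641 and 1.13 against 135 and 201 CPM for SERPINA3, and 0.427 and 0.411 against 23.2 and 26.8 for BCKDHA. So did CYP1A1, at 26.5 and 20.8 CPM in the PA control libraries and 0.981 and 0.917 in the OA control libraries. Its treated levels were 6.19 and 14.2 with PA and 10.6 and 12.5 with OA. Among the rest, LCN15 was 8.12 and 5.44 in the controls and 26.0 and 10.0 with PA, and 25.7 and 81.0 in the controls and 19.9 and 25.2 with OA (CPM). LIMD2 was 49.4 and 70.4 in the controls and 128 and 79.5 with PA, and 25.0 and 45.98 in the controls and 9.02 and 14.6 with OA. IL10RB was 4.70 and 2.03 in the controls and 1.28 and 1.23 with PA, and 13.7 and 12.6 in the controls and 34.4 and 28.0 with OA.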

How the results depend on the processing

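The number of genes called with PA depended most on the processing. In all cells it was 76 with DESeq2 and 112 with no filter on low counts, beside 16. In EPCAM+ collagen- cells it was 58 with DESeq2, 133 with no filter and 11 with at least 1000 genes and at most 10% mitochondrial counts per cell, beside 19. Genes called with both treatments in the same direction numbered 62 and 92 in all cells with DESeq2 and with no filter, beside 16, and 52, 101 and 11 under those 3 settings in the gated cells, beside 18. The cause was not tested. Leaving out 1 library gave 0 to 52 genes for PA, 5953 to 10224 for OA, 2665 to 5298 for the difference and 0 to 39 for both in all cells, and 0 to 66, 3797 to 8108, 1174 to 3779 and 0 to 45 in the gated cells. The lowest counts came without PA control replicate 2 for PA, and without OA replicate 1 for OA and the difference. Without PA control replicate 2 the PSCA difference turned to 0.18 in gated cells and 0.17 in all cells, and over all libraries left out it ranged from -5.73 to 0.18 and -6.72 to 0.17. The difference in the gain of EPCAM+ collagen- cells ran from -57.03 to -47.02 points without 1 library and was -38.6 at 1500 UMIs per cell. Library totals as the scale, an alternative chosen after seeing the data, changed the OA split to 2571 higher and 4527 lower in gated cells and 2932 and 6394 in all cells. For the named genes, 3454 of the values under other settings were called in both fits in the same direction or in neither fit. Those called in neither were counted whatever their sign. A call was lost for 77 values and gained for 97. A replicate block, with 4 blocks of same-numbered libraries within an experiment, gave 20, 7417 and 3869 genes for PA, OA and the difference in gated cells and 19, 9298 and 5155 in all cells. Same-numbered libraries' deviations correlated at 0.144 in the PA and 0.276 in the OA experiment in gated cells, and the libraries share only a number. Genes with few counts in PA control replicate 1 are limited by its depth.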

Other observations

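Over all genes tested in EPCAM+ collagen- cells, 21.8% were called higher and 19.5% lower with OA. Of 15 hepatocyte transcription factors, 6 rose and 2 fell with OA, or 4 and 3 on the scale of library totals, and none was called with PA by edgeR or DESeq2, with 1 higher at an unadjusted p under 0.05 (background 2.13%). NR1H4, the bile acid receptor FXR, was 5.34 and 5.36 in the controls and 5.42 and 8.37 with PA, and 15.7 and 10.2 in the controls and 87.8 and 59.2 with OA, a difference of -2.11 (SE 0.41, edgeR adjusted p = 0.00874). NR0B2, a repressor that FXR induces, differed by -1.34 (SE 0.26, edgeR adjusted p = 0.00828). FOXA2, a pioneer factor of endoderm, fell with OA (-1.84) and had a PA effect of -0.07. Of 23 genes of hypoxia and glycolysis, 6 rose and 3 fell with OA, or 2 and 4 on the scale of library totals. HK2, a hexokinase low in mature hepatocytes, had effects of 0.71 and 2.61, and ANKRD37, a hypoxia target, 0.36 and -2.28. Of 16 ductal and simple epithelial genes 4 rose and 4 fell with OA, or 3 and 5 on that scale, and the sign of the list's OA median of 0.11 turned to -0.14 there. KRT7, a ductal keratin, had effects of -0.31 and 0.08 and an interval of the difference of -1.05 to 0.28.

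CEBPD, a transcription factor of the acute-phase response that was on no list, is named after its values were seen. It stood at 51.5 and 53.9 in the PA control libraries, 117 and 217 with PA, 172 and 168 in the OA control libraries and 502 and 549 with OA. The PA effect of 1.66 was not called (edgeR adjusted p = 0.0685) and the OA effect of 1.63 was, and the interval of the difference was -0.77 to 0.84. EBI3, an interleukin subunit, chosen in the same way, had effects of 1.15 and 1.49 and an interval of -0.91 to 0.21.

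Control levels of some genes differed widely between the experiments. In the gated cells 8 genes stood at 20 CPM or more in the PA control and under 1 in the OA control, and 15 the reverse, of 5990 genes at 20 or more in either. CYP51A1, an enzyme of cholesterol synthesis, was at 2.78 and 3.95 in the PA control libraries and 134 and 135 in the OA control libraries. The experiments were deposited with gene lists of different lengths, and the part of the reference annotation was not tested.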
